A study of Mus musculus with 6 samples.

Results

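Macrophage and myeloid marker genes were followed in mouse brown adipose tissue, the fat depot that makes heat. The 40 genes were picked by symbol rather than by a threshold on measured values, although earlier results of these data were known when the list was made, and 38 of them, with 58 probe sets between them, were among the 12393 genes measured. Spp1 and Timd4 were not analysed here. The 6 samples came from mice of 3.5 months with a mixed background (C57BL6 and 129), which had all been given a high fat diet for 3 months. In the control group, 3 samples, both Yy1 alleles were floxed (YY1flox/flox). The YY1bKO group, also 3 samples, was YY1flox/flox and carried Ucp1Cre in addition, so that Yy1, which encodes the transcription factor Yin Yang 1, is removed from cells that use the Ucp1 promoter, the brown adipocytes. Myeloid cells are not the cells this Cre is meant to recombine, and the comparison therefore reads their transcripts in a tissue whose adipocytes were changed. RNA was taken from whole tissue, in which fewer cells of a type and less RNA per cell cannot be told apart. Yy1 itself was lower in YY1bKO (log2 fold change -1.43 ± 0.10, SE, adjusted p = 0.000854), and probes outside a deleted part would not show the deletion.

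Macrophages of adipose tissue clear dead adipocytes, take up lipid and iron, and release signals that act on fat cells and nerves. They are recognised by surface receptors for debris, antibody and microbial products, by the growth factor receptor Csf1r, and by proteins that all leukocytes share. In obesity, monocytes from blood enter fat depots and add cells with another receptor profile to those that reside there.

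Values are log2 of the deposited array intensity, so that a difference of 1 is a doubling. Where a gene had several probe sets, the brightest one stood for it. A gene was called where the limma test, fitted over all genes, gave an adjusted p under 0.05. The median intensity of all probe sets was 6.48 on this scale, and 10 of the 38 members had a mean at or below it and are termed dim.

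Most macrophage and leukocyte markers did not separate the groups. Of the 38 members, 1 was called higher in YY1bKO (Ms4a7) and 3 lower (Cd163, Tlr4 and Msr1), against 10.2% of all genes called higher and 8.09% called lower. At an unadjusted p under 0.05 the numbers were 2 higher and 3 lower. The median log2 fold change of the members was 0.07, and that of all genes 0.04. In 3 members the YY1bKO values all lay above the control values (Ms4a7, Gpnmb and Clec4n) and in 3 all below (Cd163, Tlr4 and Msr1), where 22.8% and 15.7% of all genes did so. No YY1bKO array could be left out without losing calls: 0 higher and 0 lower remained without YY1bKO replicate 1 or 2, and 0 higher and 1 lower (Tlr4) without YY1bKO replicate 3. Calls over all genes fell in these fits as well, from 1267 higher and 1003 lower to 555 and 513, 547 and 466, and 570 and 492. Without control replicate 1, 2 and 3 in turn they were 678 and 541, 1661 and 1439, and 946 and 792.

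Control replicate 3 had the lowest value of the 6 arrays in 27 of the 38 members, or 71.1%, against 15.7% of all genes. It lay below the mean of the other 2 controls in 35 members, and the gap over all 38 had a median of 0.63 on the log2 scale and reached 1.20, in Gpnmb. The mean over the 38 members was 7.93, 7.84 and 7.34 on control replicates 1, 2 and 3, and 7.67, 7.73 and 7.93 on the YY1bKO replicates. The SD was larger in control than in YY1bKO for 32 of 38 members, against 66.5% of all genes. The median SD of the members was 0.39 in control and 0.14 in YY1bKO, whereas over all genes the medians were 0.14 and 0.10. The control group therefore varied far more than the YY1bKO group in these genes, and 1 array set much of that spread. Across whole arrays another control stood apart. Control replicates 1 and 3 correlated at 0.9956, and control replicate 2 correlated with them at 0.9806 and 0.9782.

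**Figure D1:**
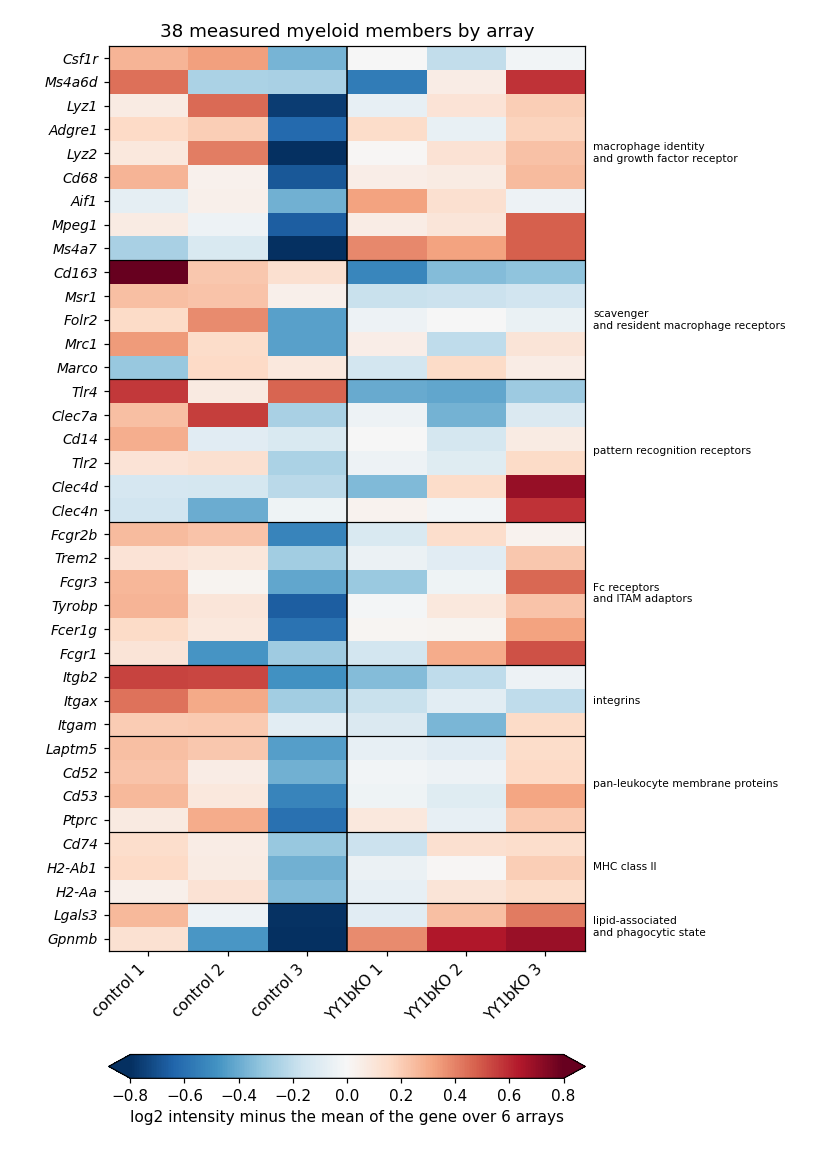
The colour is the log2 intensity of each of 38 members on each of 6 arrays, minus the mean of that gene over the arrays, with genes grouped by role; colours beyond 0.8 in either direction are drawn at that limit. Control replicate 3 is the lowest array in 27 of the genes, while Cd163, Tlr4 and Msr1 are lower on all 3 YY1bKO arrays.

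Without control replicate 3 the direction of the list turned. The median log2 fold change of the members became -0.10, with 28 members below 0 and 10 above, where all 6 arrays gave 12 below and 26 above. The median of all genes was then 0.05, and with all 6 arrays 56.9% of all genes were above 0. In 16 members the sign went from positive to negative. On these 5 arrays 1 member was called higher and 5 lower, Itgb2 and Itgax having joined Cd163, Tlr4 and Msr1, against 7.63% and 6.39% of all genes. Without control replicate 1 or 2 the median of the members was 0.20 or 0.14. In each of these fits 28 members were above 0 and 10 below.

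Other tissue marker lists also differed among the control arrays, though not always on control replicate 3. Averaged over 8 fibroblast markers, the log2 intensity was 9.29 on this array and 9.93 and 10.15 on the other controls, and 9.61 to 9.94 in YY1bKO, and 6 of the 8 genes were lowest there. Skeletal muscle markers, 13 in all, averaged 11.01 on control replicate 3, 11.28 on control replicate 1, 13.74 on control replicate 2 and 12.15 to 12.62 in YY1bKO. Control replicate 2 stood furthest from the other controls in this list. Control replicate 3 was lowest in 12 of the 13 genes, with a mean near that of control replicate 1. Brown adipocyte markers, with Ucp1 at 13.92 and 13.78 in control and YY1bKO as the check of the tissue label, averaged 11.67 on control replicate 3 and 11.47 and 11.56 on the other controls, and 11.56 to 11.66 in YY1bKO. The part of such differences in the myeloid values was not tested.

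**Figure D2:**
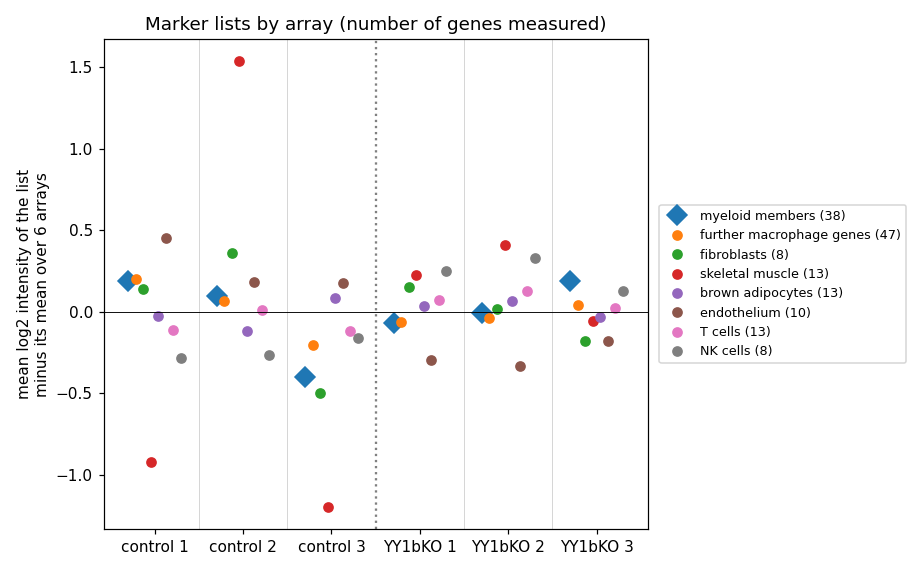
Each point is the mean log2 intensity of a marker list on 1 array, minus the mean of that list over the 6 arrays, with the number of genes measured in brackets. The myeloid members and the fibroblast list are lowest on control replicate 3, the muscle list ranges most widely, and the endothelial list is lower on all YY1bKO arrays.

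Of the 9 general macrophage markers, 8 had their lowest value on control replicate 3. Adgre1, an adhesion receptor that is the standard surface marker of mouse macrophages, had values of 7.87, 7.91 and 7.09 in control and 7.86, 7.65 and 7.89 in YY1bKO. Only control replicate 3 stood apart, and the groups overlapped. The log2 fold change was 0.18 ± 0.22 (SE, adjusted p = 0.640), with a 95% interval from -0.36 to 0.71, and -0.09 ± 0.11 without control replicate 3.

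Cd68, a glycoprotein of the phagocyte lysosome, had values of 7.74, 7.50 and 6.79 in control and 7.52, 7.54 and 7.73 in YY1bKO. The same array was low and the groups overlapped (0.25 ± 0.24, adjusted p = 0.524, interval -0.31 to 0.81). Ptprc, the membrane phosphatase common to leukocytes, had values of 8.49, 8.72 and 7.83 in control and 8.51, 8.36 and 8.63 in YY1bKO. It gave 0.15 ± 0.23 (adjusted p = 0.694, interval -0.39 to 0.69), again with control replicate 3 below the other 5 arrays.

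Csf1r, the receptor for the growth factor that keeps macrophages alive, had values of 10.80, 10.86 and 10.16 in control and 10.53, 10.33 and 10.51 in YY1bKO. Here the YY1bKO arrays lay between control replicate 3 and the other controls. The difference was -0.15 ± 0.19 (adjusted p = 0.649, interval -0.61 to 0.31), and -0.37 ± 0.10 without control replicate 3 (adjusted p = 0.0613). The 2 other probe sets of Csf1r gave -0.04 and 0.07.

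Mpeg1, a pore-forming protein of phagosomes, had values of 8.85, 8.75 and 8.13 in control and 8.85, 8.88 and 9.26 in YY1bKO (0.42 ± 0.21, adjusted p = 0.228). Without control replicate 3 its difference was 0.20 ± 0.15. The calcium-binding protein gene Aif1 was dim and gave 0.28, and Ms4a6d, a membrane protein of the same family as Ms4a7, gave 0.05 with a spread of 0.57 (SD, n = 3) among the YY1bKO arrays. Lyz2, the lysozyme of macrophages, gave 0.24 ± 0.30. The near-identical Lyz1 gave 0.16 ± 0.29 from a probe set whose name ends in x_at, the maker's sign for probes that can bind other transcripts. A Lyz1 probe set without that sign was dim on every array, at 3.61 in control and 3.60 in YY1bKO, so the bright Lyz1 values cannot be told apart from Lyz2.

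Ms4a7, a tetraspan membrane protein of macrophages, was the member called higher. Its values were 7.79, 7.93 and 7.24 in control and 8.43, 8.37 and 8.53 in YY1bKO. All 3 YY1bKO arrays lay above all 3 controls. The rise was 1.73-fold, or 0.79 ± 0.18 on the log2 scale (moderated SE, adjusted p = 0.0271), and 0.58 ± 0.10 without control replicate 3 (adjusted p = 0.0208). The call was lost without control replicate 1 (adjusted p = 0.0597) or YY1bKO replicate 1, 2 or 3 (0.0871, 0.0798 and 0.0977).

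Gpnmb, a glycoprotein of lipid-laden phagocytes, had the largest difference of the 38 and was not called. Control values were 8.05, 7.46 and 6.56, and YY1bKO values 8.31, 8.57 and 8.62. The groups did not overlap, but the controls spanned a wide range (SD 0.75, n = 3, against 0.17 in YY1bKO). Its log2 fold change was 1.14 ± 0.35 (adjusted p = 0.0682), or 2.21-fold, and 0.74 ± 0.20 without control replicate 3 (adjusted p = 0.0628). It was called without control replicate 1 (1.49, adjusted p = 0.0320). Lgals3, a galactose-binding lectin of phagocytes that adipose tissue also expresses in other cells, gave 0.38 ± 0.28 (adjusted p = 0.397), and 0.08 without control replicate 3.

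Of 5 measured scavenger and resident macrophage receptors, 2 were lower and 0 higher, where 8.09% and 10.2% of all genes were, and 1 of the 2, Msr1, rests on a single dim probe set. Cd163, the receptor through which resident macrophages take up haemoglobin bound to haptoglobin, had values of 8.72, 8.10 and 8.01 in control and 7.36, 7.54 and 7.56 in YY1bKO. Every YY1bKO array lay below every control, control replicate 3 included. The difference was -0.79 ± 0.19 on the log2 scale (moderated SE, adjusted p = 0.0330), which is 1.73-fold lower, and -0.92 ± 0.19 without control replicate 3 (adjusted p = 0.0343). Control replicate 1 was the highest array, and without it the difference was smaller, at -0.57 (adjusted p = 0.031). The call was lost without YY1bKO replicate 1, 2 or 3 (adjusted p = 0.113, 0.0963 and 0.0911).

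Msr1, a scavenger receptor for modified lipoproteins, was called lower from a dim probe set. Its values were 6.53, 6.52 and 6.33 in control and 6.12, 6.13 and 6.14 in YY1bKO (-0.33 ± 0.08, adjusted p = 0.0361). The other probe sets of Msr1 gave -0.08, 0.02 and 0.06, and the mean over all 4 gave -0.08 (adjusted p = 0.494). The call was also lost without control replicate 1 (adjusted p = 0.113) or YY1bKO replicate 1, 2 or 3 (0.113, 0.115 and 0.108). The mannose receptor Mrc1 gave -0.04 ± 0.21, the folate receptor Folr2 -0.06 ± 0.20 and the dim scavenger receptor Marco 0.04 ± 0.15, and none of these was called.

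Tlr4, which with Cd14 senses bacterial endotoxin and is made by adipocytes and endothelium as well as by macrophages, fell. Values of its brightest probe set were 7.50, 7.00 and 7.39 in control and 6.53, 6.52 and 6.64 in YY1bKO. The groups did not overlap, and control replicate 3 was not low in this gene. The log2 fold change was -0.73 ± 0.14 (SE, adjusted p = 0.0150), or 1.66-fold lower. A dim probe set of Tlr4 gave -0.59 ± 0.13, and it was called too when all probe sets were fitted (adjusted p = 0.0266). The call of the gene was lost without YY1bKO replicate 1 or 2 (adjusted p = 0.0620 and 0.0636).

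The remaining pattern recognition receptors were not called. Cd14 gave -0.05 ± 0.13, Tlr2, a receptor for bacterial lipoproteins, 0.01 ± 0.13 and Clec7a, a receptor for fungal beta-glucan, -0.36 ± 0.21. Clec7a was -0.58 ± 0.15 without control replicate 3 (adjusted p = 0.0582). The lectin Clec4n gave 0.39 ± 0.18 and its neighbour in the family Clec4d 0.33 ± 0.24, both dim and both highest on YY1bKO replicate 3. A dimmer probe set of Clec4n was called higher when all probe sets were fitted (0.38 ± 0.09, adjusted p = 0.0282). In that fit 2 of the 58 member probe sets were higher and 4 lower, against 8.83% and 7.16% of all probe sets.

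Among the 3 integrin chains by which leukocytes adhere, none was called with all arrays (0 at an unadjusted p under 0.05 in limma), and 2 were called lower without control replicate 3. Itgb2, the beta chain that pairs with Itgam and Itgax, had values of 7.40, 7.39 and 6.37 in control and 6.51, 6.65 and 6.81 in YY1bKO. Its difference was -0.40 ± 0.28 (adjusted p = 0.384), and -0.74 ± 0.11 without control replicate 3 (adjusted p = 0.0177). Control replicate 3 was the lowest array, and the YY1bKO arrays lay below the other 2 controls. Itgax, a chain also used to mark dendritic cells and macrophages of obese fat, was dim and gave -0.31 ± 0.18 (adjusted p = 0.305), and -0.52 ± 0.09 without that array (adjusted p = 0.0239). Itgam was dim and gave -0.22 ± 0.15, and -0.31 without that array.

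Fc receptors, which bind antibody, and their signalling adaptors held no called gene among 6, and 0 had an unadjusted p under 0.05 in limma. Fcgr1, the high-affinity receptor, had values of 5.50, 4.93 and 5.12 in control and 5.25, 5.70 and 5.91 in YY1bKO (0.44 ± 0.21, adjusted p = 0.207). The groups overlapped at this dim level. The inhibitory receptor Fcgr2b gave 0.03 in its brightest probe set and 0.07 to 0.23 in the others, and Fcgr3 gave 0.08 ± 0.24. The adaptors Fcer1g and Tyrobp gave 0.24 ± 0.21 and 0.20 ± 0.24, and 0.00 and -0.09 without control replicate 3. Trem2, the lipid-sensing receptor that signals through Tyrobp, was dim and gave 0.05 ± 0.14.

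Class II antigen presentation and pan-leukocyte membrane proteins likewise held no call, 0 of 3 and 0 of 4, and 0 at an unadjusted p under 0.05 in limma. H2-Aa and H2-Ab1, the alpha and beta chains of the presenting molecule, gave 0.13 ± 0.14 and 0.11 ± 0.16, and their invariant chain Cd74 gave 0.07 ± 0.15. The other probe sets of H2-Aa and H2-Ab1 lay between 0.04 and 0.19. Cd53, a tetraspanin, gave 0.12 ± 0.22, the small glycoprotein gene Cd52 0.06 ± 0.16 and the lysosomal protein gene Laptm5 -0.01 ± 0.19, with 0.02 and 0.24 in its other probe sets. In the brightest probe sets, control replicate 3 was the lowest of the 6 arrays for all 7 of these genes, Ptprc included.

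**Figure D3:**
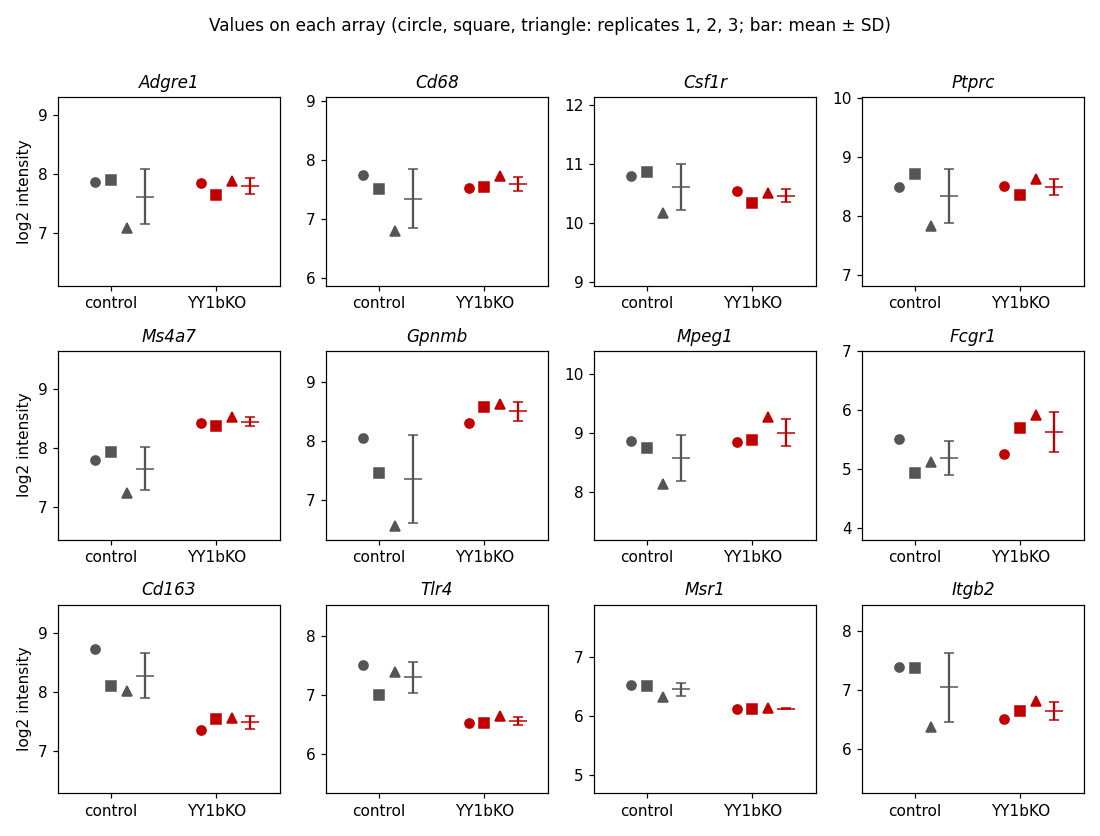
Log2 intensities of 12 members on each array, with grey for control and red for YY1bKO, symbols for replicates 1 to 3, and the mean ± SD of 3 arrays at the right of each group; each panel spans the same range of log2 units. The triangle of control replicate 3 is low in the top row and in Ms4a7, Gpnmb, Mpeg1 and Itgb2, but not in Tlr4. Ms4a7, Gpnmb, Cd163, Tlr4 and Msr1 show no overlap between groups.

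To set the other members against the general myeloid signal of the same array, the mean of Adgre1, Cd68, Csf1r and Ptprc was added to the fit as a covariate. This fit was chosen after the data had been seen, and its covariate rests largely on control replicate 3, at 7.97 against 8.47 to 8.75 on the other arrays. Of the 34 other members, Ms4a7 and Gpnmb were higher and Cd163, Tlr4, Itgb2 and Msr1 lower, against 9.38% and 7.61% of all genes. Gpnmb gave 0.99 ± 0.20 (adjusted p = 0.0300) and Ms4a7 0.70 ± 0.08 (adjusted p = 0.00695). Cd163 gave -0.84 ± 0.18 (adjusted p = 0.0334), Tlr4 -0.72 ± 0.15 (0.0294), Itgb2 -0.53 ± 0.11 (0.0275) and Msr1 -0.36 ± 0.07 (0.0274). Cd52 and Cd74 gave -0.01 and 0.01 in this fit. The median of the 34 was 0.01.

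Relative to the mean of these 4 markers on its own array, Cd163 was at 0.00, -0.64 and 0.05 in control and -1.24, -0.93 and -1.12 in YY1bKO. Gpnmb was at -0.68, -1.29 and -1.41 in control and -0.30, 0.10 and -0.07 in YY1bKO. Itgb2 was at -1.33, -1.36 and -1.60 in control and -2.10, -1.82 and -1.88 in YY1bKO. These values are differences within an array, shown for 3 genes chosen after their values were seen.

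**Figure D4:**
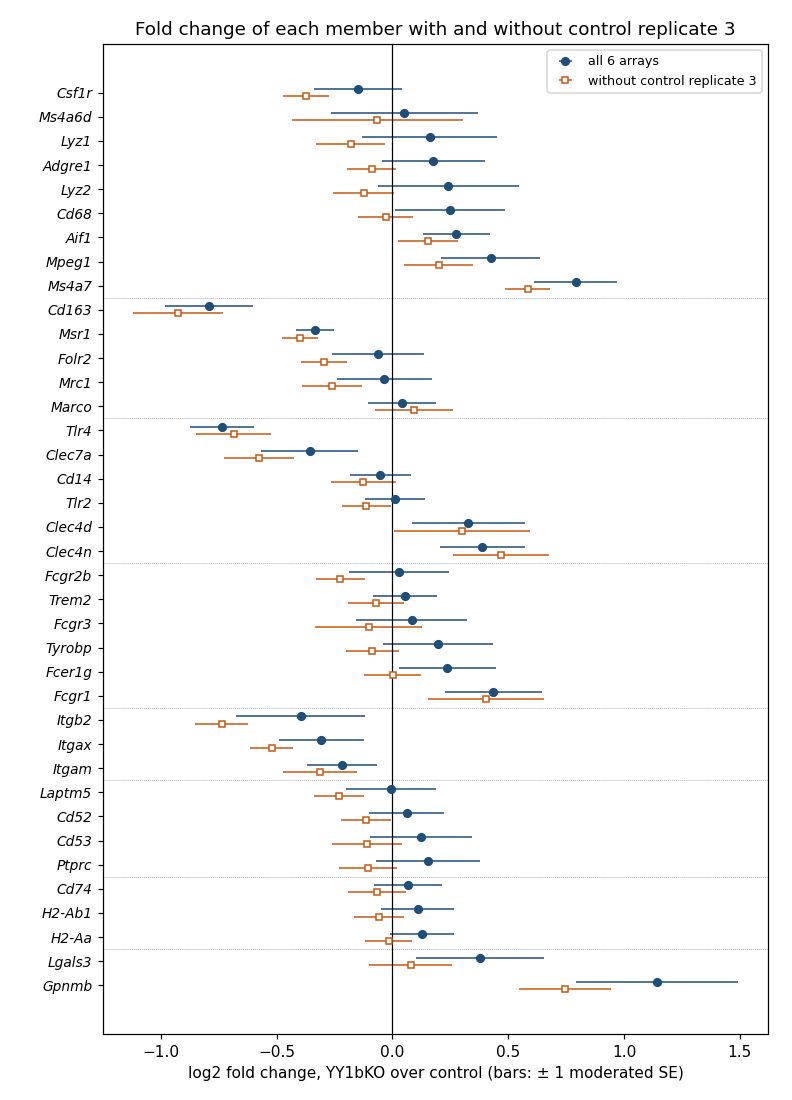
Log2 fold change of YY1bKO over control for each member, with all 6 arrays (filled circles) and without control replicate 3 (open squares); bars are ± 1 moderated SE and dotted lines part the roles. Most open squares lie to the left of the circles, with a median of -0.10 against 0.07, while Ms4a7 and Gpnmb stay above 0 and Cd163 and Tlr4 below.

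The bases upstream of 4 members are shown because these genes behaved differently: Ms4a7 and Cd163 were called in opposite directions, Gpnmb had the largest difference, and Cd68 stands for the general markers. Sequences are from RefSeq on GRCm38.p6 and give the 250 bases before the start site in the direction of the gene, and 28 of the 40 listed genes matched this table by symbol. Capitals mark GAGGAA, the core bound by the myeloid factor PU.1, and CCATNTT, a core of YY1 sites, on either strand. Cd68 is at chr11:69666171-69666420 (minus strand), Ms4a7 at chr19:11336147-11336396 (minus strand, the first of 2 starts), Cd163 at chr6:124304401-124304650 (plus strand) and Gpnmb at chr6:49036268-49036517 (plus strand).
Cd68: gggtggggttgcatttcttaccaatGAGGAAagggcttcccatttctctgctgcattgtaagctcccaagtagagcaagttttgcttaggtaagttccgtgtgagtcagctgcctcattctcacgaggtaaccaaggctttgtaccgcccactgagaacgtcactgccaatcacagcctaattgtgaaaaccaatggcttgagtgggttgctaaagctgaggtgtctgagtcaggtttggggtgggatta
Ms4a7: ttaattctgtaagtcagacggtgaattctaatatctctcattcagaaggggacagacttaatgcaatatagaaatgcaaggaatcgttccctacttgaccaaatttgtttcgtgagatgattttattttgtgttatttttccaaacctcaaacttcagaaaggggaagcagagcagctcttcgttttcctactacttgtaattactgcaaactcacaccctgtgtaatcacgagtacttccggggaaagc
Cd163: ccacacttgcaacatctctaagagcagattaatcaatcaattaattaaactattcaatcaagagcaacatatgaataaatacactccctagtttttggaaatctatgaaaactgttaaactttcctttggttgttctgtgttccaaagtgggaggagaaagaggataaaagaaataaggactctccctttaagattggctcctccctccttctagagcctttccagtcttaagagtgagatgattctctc
Gpnmb: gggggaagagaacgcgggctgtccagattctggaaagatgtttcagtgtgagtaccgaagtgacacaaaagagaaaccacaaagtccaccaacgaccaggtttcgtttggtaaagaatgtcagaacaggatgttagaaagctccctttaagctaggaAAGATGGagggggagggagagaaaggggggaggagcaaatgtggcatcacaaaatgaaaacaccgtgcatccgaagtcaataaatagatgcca
The Cd68 window held 1 GAGGAA and the Gpnmb window 1 CCATNTT, read on the opposite strand. The Ms4a7 and Cd163 windows held neither. Of the 34 windows of the listed genes, where a gene can have several starts, 47.1% held GAGGAA and 5.88% held CCATNTT, beside 23.3% and 12.4% of all 32851 windows of this length. GAGGAA stood before Ptprc, Itgam, Cd53, Mrc1 and Fcgr1, for example, which were not called. CCATNTT stood before Fcer1g as well as Gpnmb, and Fcer1g was not called. A match describes letters only, and binding was not measured.

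Other genes of myeloid cells were measured as well. In a list of 47 further macrophage genes 2 were called higher and 0 lower, against 10.2% and 8.09% of all genes. The list had a median of -0.03, and 8 of its genes had an unadjusted p under 0.05. The 2 called genes were the fatty acid binding protein gene Fabp5 (0.50 ± 0.14, adjusted p = 0.0488), which adipocytes also express, and the dim Fc receptor gene Fcgr4 (0.68 ± 0.19, adjusted p = 0.0489). Fcgr4 lost its call without any one of the 6 arrays (adjusted p 0.0502 to 0.149), and Fabp5 without any except YY1bKO replicate 2 (0.0663 to 0.152). The third by p, Lst1, a leukocyte transcript, gave 0.29 (adjusted p = 0.107). Control replicate 3 was the lowest array in 21 of the 47. Without control replicate 1 no gene of this list was called, and without control replicate 2 Lst1 was higher and Ctsb, a lysosomal protease gene, lower. Without control replicate 3, Mmp12, Lcp1 and Vsig4 were called lower and Lipa higher, and the median was -0.16.

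Mmp12, the elastase of macrophages, had values of 7.82, 7.83 and 5.93 in control and 5.78, 5.70 and 6.02 in YY1bKO. Control replicate 3 thus lay among the YY1bKO arrays. The difference was -1.36 ± 0.50 (adjusted p = 0.112) with all arrays and -1.99 without control replicate 3 (adjusted p = 0.00285). Vsig4, a complement receptor of resident macrophages, showed the same arrangement at dim values, with 4.53, 4.73 and 3.77 in control and 3.44, 3.55 and 3.91 in YY1bKO.

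Among 16 myeloid transcription factors and cytokine inputs, 0 were higher and 2 lower: Csf2ra, a chain of the receptor for granulocyte-macrophage growth factor (-0.37 ± 0.08, adjusted p = 0.0230), and Cebpa (-0.51 ± 0.12, adjusted p = 0.0268), a factor that adipocytes use too. The partner chain Csf2rb gave -0.46 (adjusted p = 0.0543). Of all genes, 10.2% were called higher and 8.09% lower. Leaving out control replicate 2 gave 6 lower genes, leaving out either other control or YY1bKO replicate 3 gave 1, and leaving out YY1bKO replicate 1 or 2 gave 0. Calls over all genes also rose without control replicate 2, to 1661 higher and 1439 lower. Recruitment genes (13), polarisation genes (15) and partners of class II presentation (10) held no call, with 1 gene each at an unadjusted p under 0.05 in limma. The recruiting chemokine genes Ccl2, Ccl8 and Ccl4 gave -0.61, 0.74 and 0.25, the polarisation genes Socs3, Ptgs2 and Chil3 -0.61, -0.33 and 0.54, and the class II genes H2-Ea, Ciita and Rfxank 0.32, 0.24 and 0.19. Without control replicate 3 Socs3 was called lower (-0.86, adjusted p = 0.0259), and without control replicate 2 Ccl2 was.

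Markers of other leukocytes were read in the same way, and differences between these lists and the myeloid members were not tested. The shares called over all genes were 10.2% higher and 8.09% lower. Of 8 NK cell markers, all dim, 5 were higher and 0 lower, with Gzmb at 0.73 ± 0.12, Klrd1 at 0.60 ± 0.10 and Eomes at 0.42 ± 0.08 (adjusted p = 0.00959, 0.0113 and 0.0179). List means were 4.07 to 4.19 in control and 4.48 to 4.68 in YY1bKO, and the count of higher genes was 2 without YY1bKO replicate 2 and 3 without control replicate 1 or YY1bKO replicate 1 or 3. T cell markers had 1 higher gene of 13, Cd3d (0.50 ± 0.12, adjusted p = 0.0289), beside Cd3e at 0.27 and Zap70 at 0.26. The Cd3d call was lost without control replicate 1 or any 1 YY1bKO array, and without control replicate 2 the count was 2. B cell markers (0 of 9) and neutrophil markers (0 of 8) held no call, nor any gene at an unadjusted p under 0.05 in limma. Their smallest p-values were those of Ighm, Cd22 and Jchain, at 0.47, 0.15 and 0.33, and of Elane, Mpo and S100a8, at 0.13, 0.10 and -0.61.

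In the dendritic cell list, dim throughout, Zbtb46 was lower (-0.53) and Xcr1 higher (0.30), and Itgae gave 0.23, among 7. For this list and the next 2, the shares over all genes were again 10.2% higher and 8.09% lower. The Xcr1 call was lost without any one array and that of Zbtb46 without YY1bKO replicate 2 or 3. Mast cell markers had 1 higher of 8, Hdc (0.42, adjusted p = 0.0354), beside Mcpt4 at 0.42 and Cma1 at 0.60. Leaving out control replicate 2 raised it to 4, and no mast cell gene was called without control replicate 1 or 3 or YY1bKO replicate 2 or 3. Calls over all genes rose too without control replicate 2, to 1661 higher and 1439 lower. Schwann cell and nerve markers held no call in 6, with 1 at an unadjusted p under 0.05 in limma, and Sox10, Th and Mbp gave 0.20, 0.16 and 0.39.

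Non-immune lists gave the setting, beside 10.2% of all genes called higher and 8.09% called lower. Endothelial markers had 4 lower and 0 higher of 10, Cdh5, Kdr and Tek at -0.53, -0.53 and -0.65 among them, with list means of 8.36 to 8.63 in control and 7.85 to 8.001 in YY1bKO. That count was 2 without control replicate 1, 7 without control replicate 2 and 1 without YY1bKO replicate 2. Tlr4 and the endothelial list were thus both lower in YY1bKO, and the part of endothelium in the Tlr4 value was not tested. Brown adipocyte markers had 3 higher of 13, Ppargc1a, Zic1 and Elovl3, at 1.09, 0.90 and 1.14, and 0 lower. Elovl3 lost its call without control replicate 1 or any one YY1bKO array. The other way, 9 of the 13 were below 0 and the median was -0.14, with Dio2 at -0.87, Plin5 at -0.40, Ebf2 at -0.39 and Cox8b at -0.21, genes named after their values were seen and none of them called (adjusted p = 0.176, 0.0528, 0.161 and 0.0957). Fibroblast and muscle markers held no call in 8 and 13 genes, and 0 had an unadjusted p under 0.05 in limma. Fbln1, Col1a2 and Dcn gave -0.26, 0.27 and 0.26, and Acta1, Tnnc2 and Myh4 gave 0.46, 0.51 and 0.52. Without control replicate 2, 12 of the 13 muscle genes were called higher. In that fit calls over all genes rose as well, to 1661 higher and 1439 lower, and without control replicate 1 they fell to 678 and 541.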

How the data were processed

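Brown adipose RNA from 3 control and 3 YY1bKO samples was hybridised to Affymetrix arrays, per the labels' protocols. The deposited intensity of each of 22690 probe sets is on a linear scale, from 4.91 to 21218.8, and RMA is named in the submitters' processing notes, without a version. RMA brings the arrays close to 1 distribution, with medians of 6.46 to 6.48 here, which would hide a shift of most transcripts. The planned tests assumed log2 values, so the deposited intensities were turned into log2 without a pseudocount. After 64 control probe sets were removed, 20380 of 22626 had 1 gene symbol in the platform annotation, 691 had several and 1555 none here. Each of 12393 genes was represented by its brightest probe set. limma 3.58.1 in R 4.3.3 (lmFit, eBayes) was fitted over all genes with group as the term, with Benjamini-Hochberg adjustment over all of them. SE is the moderated standard error. On simulated data for this comparison, with 12393 genes, 24% of genes changed by 0.5 and 70% of those changed by 1 on the log2 scale were recovered. The simulation changed 100 genes at each size, drawn from all genes, with equal noise in both groups. The members varied more in control (median SD 0.39, against 0.14 over all genes), so these shares do not describe them.

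The members and marker lists were chosen with earlier results of these data known, so lists are described by counts and medians and were not tested as sets. The value on each array is given for Adgre1, Cd68, Csf1r and Ptprc, called members and the 6 largest differences, and of each other list the 3 genes with the smallest p are named. Itgb2, Mmp12, Vsig4 and genes called without control replicate 3 were chosen after their values were seen. Since the labels do not state whether each replicate is another mouse, p-values reflect only the variation among the 6 samples, part of which may be technical. No batch was named. With 3 arrays a group, their number limits the precision. The correlation of deviations between arrays with the same replicate number was -0.25, 0.11 and 0.26, so the numbers were not taken as pairs.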

Additional observations from a re-analysis of the deposited data

How the results depend on the processing

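Ms4a7 was called higher and Cd163 and Tlr4 lower with the mean over probe sets, without dim probe sets, after quantile normalization or median centring, with trend and robust options, with array weights and with a pseudocount of 16. Msr1 was not called with the mean over probe sets, with trend and robust options or, being dim, in the test of brighter genes. The number of members called higher was 1 with all arrays, 2 when all probe sets were fitted, 2 with the covariate of 4 myeloid genes, which was added after the data had been seen, and 0 to 1 when single arrays were left out. The number called lower was 3 with all arrays and 0 to 5 when single arrays were left out, the highest without control replicate 3. With the replicate number as a block, 0 members were higher and 1, Tlr4, was lower. Over all genes that block gave 671 higher and 639 lower, against 1267 and 1003 without it. The median of the members was 0.07, and -0.10 to 0.20 when single arrays were left out, the lowest without control replicate 3, and 0.05 to 0.11 under the other planned settings. Signal limits what the 10 dim members can show.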
